A study of Rattus norvegicus with 2 samples.

Results

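The Sox family was examined in cultured oligodendrocyte precursor cells (OPCs), the dividing glia that give rise to myelinating oligodendrocytes. The genes were chosen by name as the Sox factors of neural progenitors, OPCs and oligodendrocytes: Sox2, Sox3, Sox4, Sox5, Sox6, Sox8, Sox9, Sox10, Sox11 and Sox21. All 10 were found among the 17049 genes of the deposited expression table, and their gene numbers led to the same symbols in RefSeq for all 10. RNA came from primary OPCs of the brain of wild-type adult rats, grown in OGM medium at 37 °C and 5% CO2. The Aβ group was a culture that received amyloid-β (Aβ), the peptide that forms the plaques of Alzheimer's disease, at 1 µM for 2 days, and the control group was a culture labelled DMSO, a solvent. Each group had 1 library, and the sources used here do not give the number of animals behind it. Since the protocol text of both samples names Aβ, the control was taken from the treatment label.

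Sox proteins bind DNA through a high-mobility-group (HMG) box and are sorted into subgroups by the likeness of that box. The SoxB1 factors Sox2 and Sox3 keep neural progenitors undifferentiated, and the SoxB2 factor Sox21 opposes them. The SoxC factors Sox4 and Sox11 act in neuronal and glial precursors, and the SoxD factors Sox5 and Sox6 are partners that restrain the SoxE factors in OPCs. Among SoxE factors, Sox9 specifies glia, Sox10 switches on myelin genes together with Myrf, and Sox8 acts alongside both.

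Promoters are shown for the SoxB genes. There Sox3 and Sox21 each differed from Sox2 in their ratio between the libraries by more than counting error, but not from each other. Each sequence covers 250 bases before and 50 bases after the annotated start, from RefSeq on build GRCr8, which is another build than that of the reads, and is used for sequence only. Of the 10 genes, 5 had an entry (Sox2, Sox3, Sox6, Sox11 and Sox21). Capitals mark 3 searched motifs on either strand, the SOX core (ACAAAG or ACAATG), the CCAAT box (CCAAT) and the GC box (GGGCGG), none of which overlaps another by its letters in the printed windows. Sox2 lies at chr2:119464881-119465180 on the plus strand, Sox3 at chrX:144346922-144347221 on the minus strand and Sox21 at chr15:101703126-101703425 on the minus strand.
Sox2: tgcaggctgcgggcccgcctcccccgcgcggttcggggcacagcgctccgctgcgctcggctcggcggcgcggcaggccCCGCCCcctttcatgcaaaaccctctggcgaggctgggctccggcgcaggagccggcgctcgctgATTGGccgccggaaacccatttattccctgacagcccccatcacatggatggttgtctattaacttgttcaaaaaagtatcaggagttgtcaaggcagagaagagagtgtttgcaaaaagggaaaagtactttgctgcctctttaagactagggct
Sox3: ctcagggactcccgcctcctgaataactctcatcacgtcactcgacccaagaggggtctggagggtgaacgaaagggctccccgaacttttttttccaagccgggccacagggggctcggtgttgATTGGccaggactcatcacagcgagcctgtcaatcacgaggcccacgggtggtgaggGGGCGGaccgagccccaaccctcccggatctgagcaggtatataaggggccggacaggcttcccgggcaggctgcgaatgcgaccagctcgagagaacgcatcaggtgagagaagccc
Sox21: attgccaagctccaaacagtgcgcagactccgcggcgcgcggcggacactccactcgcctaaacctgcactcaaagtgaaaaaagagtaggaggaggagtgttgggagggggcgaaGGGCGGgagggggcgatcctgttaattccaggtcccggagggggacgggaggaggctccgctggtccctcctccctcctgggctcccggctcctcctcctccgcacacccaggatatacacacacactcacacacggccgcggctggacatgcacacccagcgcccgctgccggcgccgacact

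The 3 windows were rich in G and C, at 60.7% for Sox2, 62% for Sox3 and 65.7% for Sox21, against a median of 51.7% over 33469 rat promoter windows of the same length. They held 23, 19 and 24 CpG dinucleotides, against a median of 7. Each held 1 GC box, a motif found in 33.1% of all windows, and Sox2 and Sox3 held 1 CCAAT box, found in 37.5% of them. None of the 3 held a SOX core, which 29.1% of all windows hold, and Sox6 held 3. A match of letters is a description and not a binding site.

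The libraries held 15704932 estimated reads (Aβ) and 15663751 (control), and 12980 genes reached 1 TPM, a level corrected for gene length and library total, in either library. With 1 library a group, no difference between conditions has a replicate check and no p-value is given. A read ratio divides the share of reads a gene took in the Aβ library by its share in the control library. Its exact 95% conditional binomial interval covers counting error only, and so compares these libraries and not the conditions. Of 8 OPC markers in the table the lineage factors Olig1 (1421 TPM with Aβ, 1557 TPM in the control) and Olig2 (336 and 375 TPM) and the phosphatase Ptprz1 (866 and 905 TPM) were high. Far lower were Pdgfra (23.2 and 24.6 TPM), Cacng4 (10.75 and 7.57 TPM), C1ql1 (8.24 and 4.25 TPM) and Cspg4 (6.65 and 3.7 TPM). The receptor Gpr17 had 4 and 5 reads. All 7 astrocyte markers were also present, including the filament Gfap (328 TPM with Aβ, 368 TPM in the control) and the glutamate transporter Slc1a3 (1013 and 987 TPM). Of 7 microglial markers in the table, 6 reached 1 TPM in either library. They ran from Aif1 (46.7 TPM with Aβ, 61.7 TPM in the control) and Csf1r (27.7 and 29.2 TPM) down to Cx3cr1 (1.41 and 2.55 TPM). The RNA thus carried genes of astrocytes and microglia beside genes of OPCs, and whether these came from the same cells was not tested.

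Sox2 was the most abundant member, and Sox10, a defining factor of the oligodendrocyte lineage, was the least. Sox2 stood at 166 TPM with Aβ (95% Poisson interval of its reads 160 to 171) and 169 TPM in the control (164 to 175), at percentile 92.6 and 92.9 of the measured genes. Sox10 stood at 0.84 TPM with Aβ (0.526 to 1.27), on 22 reads, and at 1.22 TPM in the control (0.840 to 1.71), on 33 reads. That placed Sox10 at percentile 1.19 with Aβ and 3.38 in the control.

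Between these ends came Sox8 (75.9 TPM with Aβ, 74.8 TPM in the control), Sox4 (46.4 and 53.4 TPM), Sox9 (32.7 and 32.9 TPM), Sox11 (29.8 and 30.1 TPM) and Sox6 (19.6 and 19.1 TPM). The first 6 places, from Sox2 to Sox6, were the same in both libraries. Sox9 and Sox11 could not be separated by counting error in either library, since their intervals overlapped. In the Aβ library Sox5 (12.8 TPM), Sox21 (12.2 TPM) and Sox3 (11.1 TPM) followed in that order with overlapping intervals between neighbours. In the control library the order was Sox3 (15.4 TPM), Sox21 (14.9 TPM) and Sox5 (11.3 TPM), with Sox3 and Sox21 overlapping and Sox5 below both.

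**Figure D1:**
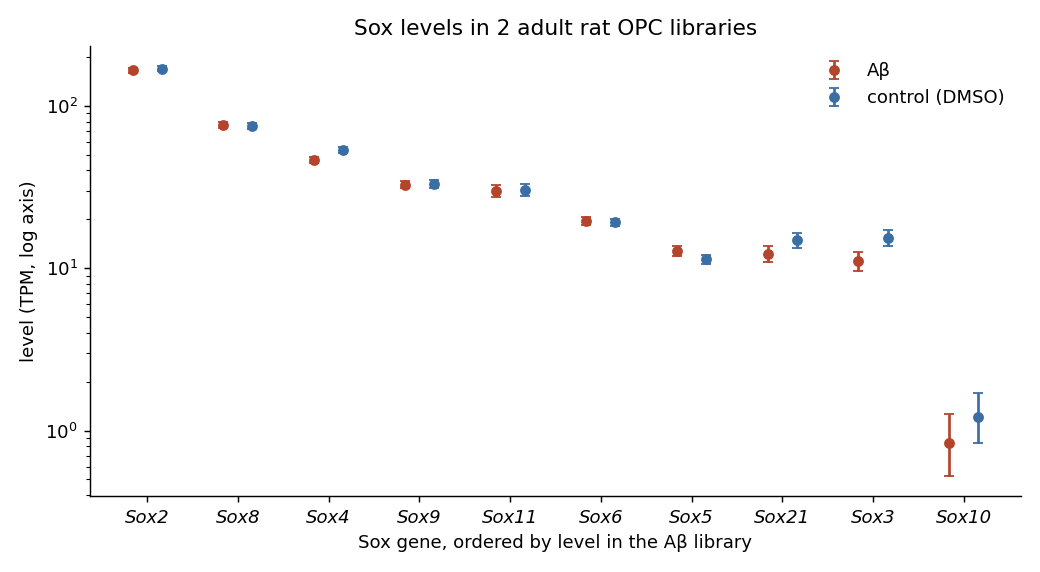
Level of each Sox gene in TPM on a log axis, with 1 point per library (Aβ left, control right of each pair) and bars giving the exact 95% Poisson interval of the reads. Sox2 was highest at 166 and 169 TPM and Sox10 lowest at 0.84 and 1.22 TPM, and the points of Sox3, Sox4 and Sox21 lay lower with Aβ.

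Across the family, differences between the libraries were small, with Sox10 too thinly read to judge. None of the 10 members was 2-fold apart by TPM with 1 added to each value, against 0.994% of the 12980 measured genes (0.501% higher and 0.493% lower with Aβ). At 0.84 and 1.22 TPM, Sox10 could hardly pass 2-fold with 1 added, and its read ratio interval of 0.369 to 1.18 takes in a 2-fold difference. The median log2 ratio of the members was −0.02, against 0.01 over all measured genes, and 7 members had a read ratio below 1 and 3 above. The counting interval lay below 1 for 3 members (Sox3, Sox4 and Sox21) and above 1 for 1 member (Sox5), and it excluded 1 for 24.5% of all measured genes. Among measured genes with whole reads and 200 or more reads over both libraries, which take in 8 of the members, the interval lay below 1 for 13.4% and above 1 for 12.5%, or 25.9% in either direction. With 10 genes and 1 library a group, the counts describe the members and were not tested. The RNA is of whole cultures, so fewer cells of a type and less RNA per cell cannot be told apart.

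**Figure D2:**
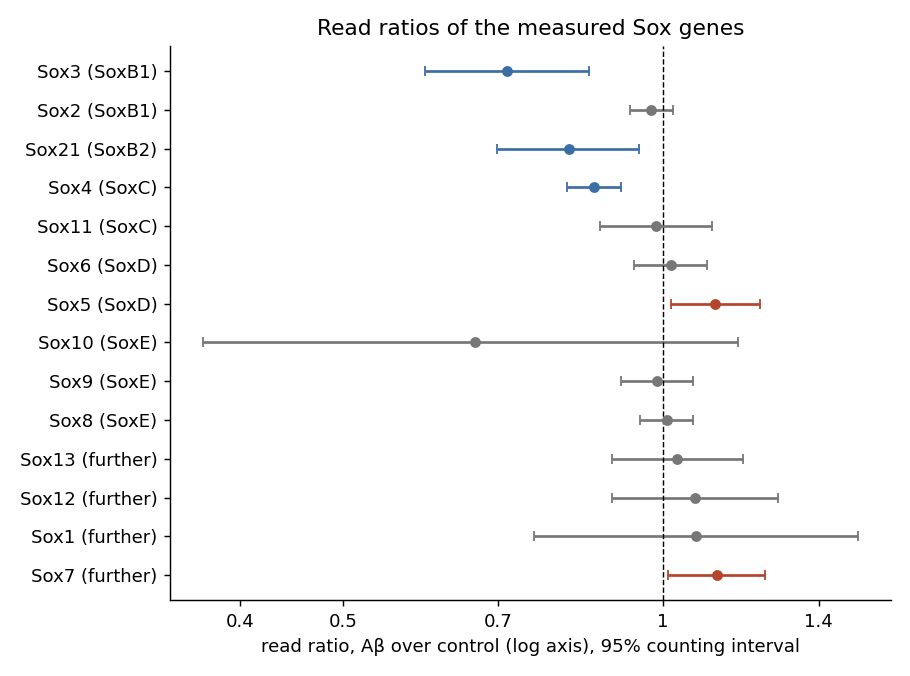
Read ratio of each measured Sox gene, Aβ over control on a log axis, with exact 95% counting intervals; blue marks an interval below 1, red above 1 and grey one that includes 1, and genes marked further are outside the 10 members. Sox3, Sox21 and Sox4 lay below 1, Sox5 and Sox7 above, and Sox10 had the widest interval (0.369 to 1.18).

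In the SoxB subgroups, Sox3 and Sox21 were lower in the Aβ library while Sox2 was near equal. Sox3, which shares the progenitor role of Sox2, had 219 reads with Aβ and 306 in the control, a ratio of 0.714 (0.597 to 0.852), the lowest of the 9 members other than Sox10. Its level was 11.1 TPM with Aβ, against 15.4 TPM in the control, and its log2 TPM ratio was −0.45. It was the only member past a log2 ratio of 0.32 in either direction, as were 10.5% of measured genes (5.74% higher and 4.75% lower). That holds with 1 TPM added to each value, and Sox10 was also past it at −0.49 with 0.1 TPM added, −0.54 with none and −0.37 by reads per total with 1 added. Sox21 had 307.51 estimated reads with Aβ and 377 in the control, a ratio of 0.815 (0.699 to 0.950). It was the only member with a count that was not whole. Sox2 had 3496 reads with Aβ and 3578 in the control, a ratio of 0.975 (0.930 to 1.02).

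The unequal ratios within SoxB can be set against each other without any library scaling, since the totals cancel. The ratio of Sox3 was 0.733 times that of Sox2 (exact conditional 95% interval 0.609 to 0.880), and that of Sox21 was 0.836 times that of Sox2 (0.712 to 0.982). Sox21 and Sox3 did not differ beyond counting error (1.14, 0.901 to 1.45). By TPM, Sox2 stood 15.0-fold above Sox3 with Aβ and 11.0-fold above it in the control. These were 3 of 8 such pairs of relatives compared, and the intervals are not adjusted for that number. The share of gene pairs at large that differ beyond counting error was not computed. For single deeply read genes with whole reads, the interval excluded 1 in 25.9%.

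In the SoxC subgroup Sox4 was lower with Aβ and Sox11 was near equal. Sox4 had 2136 reads with Aβ and 2474 in the control, a ratio of 0.861 (0.812 to 0.913), and Sox11 had 534 and 541 reads, a ratio of 0.984 (0.872 to 1.11). Set against each other, the ratio of Sox4 was 0.875 times that of Sox11, with an interval of 0.764 to 1.00 that just included equality. Sox4 stood 1.56-fold above Sox11 by TPM with Aβ and 1.77-fold above it in the control.

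In the SoxD subgroup Sox5 was slightly higher with Aβ and Sox6 was near equal. Sox5 had 887 reads with Aβ and 790 in the control, a ratio of 1.12 (1.02 to 1.23), and Sox6 had 1289 and 1265 reads, a ratio of 1.02 (0.940 to 1.10). The ratio of Sox5 was 1.10 times that of Sox6 (0.972 to 1.249), so the pair was not separated by counting error. Sox6 was the more abundant by TPM, 1.54-fold above Sox5 with Aβ and 1.69-fold above it in the control.

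The pooled SoxE reads were near equal in the libraries. Sox8 had 2330 reads with Aβ and 2307 in the control (ratio 1.01, 0.951 to 1.07), and Sox9 had 1275 and 1288 reads (0.987, 0.913 to 1.07). The 22 and 33 reads of Sox10 gave 0.665 (0.369 to 1.18), so a difference in Sox10 was not detectable at this depth. The ratio of Sox10 was 0.660 times that of Sox8 (0.365 to 1.17) and 0.674 times that of Sox9 (0.372 to 1.20), and that of Sox8 was 1.02 times that of Sox9 (0.925 to 1.12).

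By TPM, SoxE transcripts were almost all Sox8 and Sox9. Sox8 stood 2.32-fold above Sox9 with Aβ and 2.27-fold above it in the control, and Sox9 stood 39.0-fold above Sox10 with Aβ and 27.0-fold above it in the control. Olig2, which acts with Sox10 in the lineage, stood 400-fold above Sox10 with Aβ and 307-fold above it in the control. The effective length that the reads and FPKM of Sox10 imply was 2501 bases with Aβ and 2569 bases in the control, within the range of 1715 to 6645 bases of the 10 members in the Aβ library. That range is wide, and these lengths rest on a low FPKM (0.56 with Aβ, 0.82 in the control). Whether the gene model of Sox10 is complete was not tested.

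**Figure D3:**
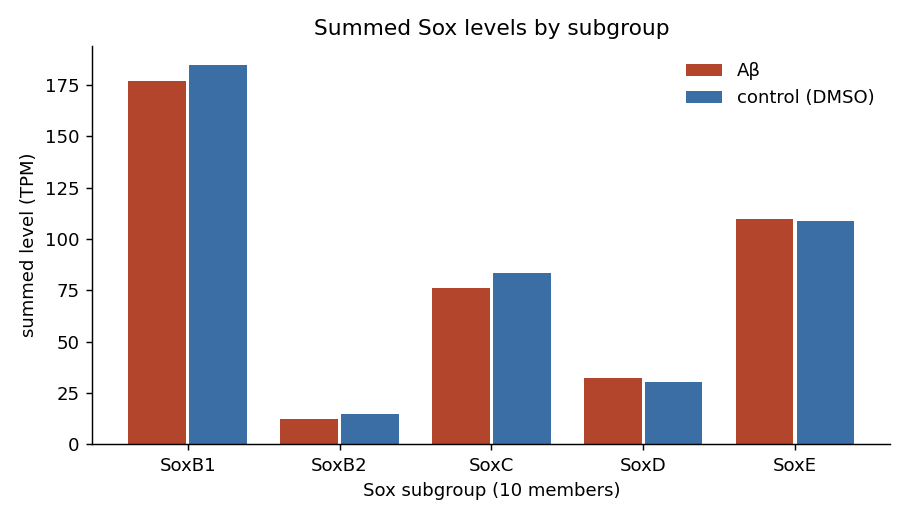
Summed TPM of the members in each Sox subgroup, with 1 bar per library (Aβ left, control right) and no error bar, since each group has 1 library. SoxB1 and SoxE were the largest sums in both libraries, and SoxC had 76.2 TPM with Aβ, against 83.6 TPM in the control.

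Summed over the family, the 10 genes held 407 TPM with Aβ, against 422 TPM in the control. SoxB1 made up 43.5% of that sum with Aβ and 43.7% in the control, SoxE 26.9% and 25.8%, SoxC 18.7% and 19.8%, SoxD 7.95% and 7.21%, and SoxB2 2.99% and 3.51%. On pooled reads, all 10 members together were at 0.962 (0.938 to 0.986), an interval below 1. SoxC was at 0.883 (0.838 to 0.931), of which Sox4 held most reads, and SoxB1 at 0.954 (0.912 to 0.998). SoxD was at 1.06 (0.994 to 1.12) and SoxE at 0.997 (0.952 to 1.04). The make-up of these 10 members by subgroup was thus within 1.11 percentage points of equal for every subgroup. These sums leave out the measured relatives Sox12 (SoxC), Sox13 (SoxD) and Sox1 (SoxB1), so they are not totals of whole subgroups.

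**Figure D4:**
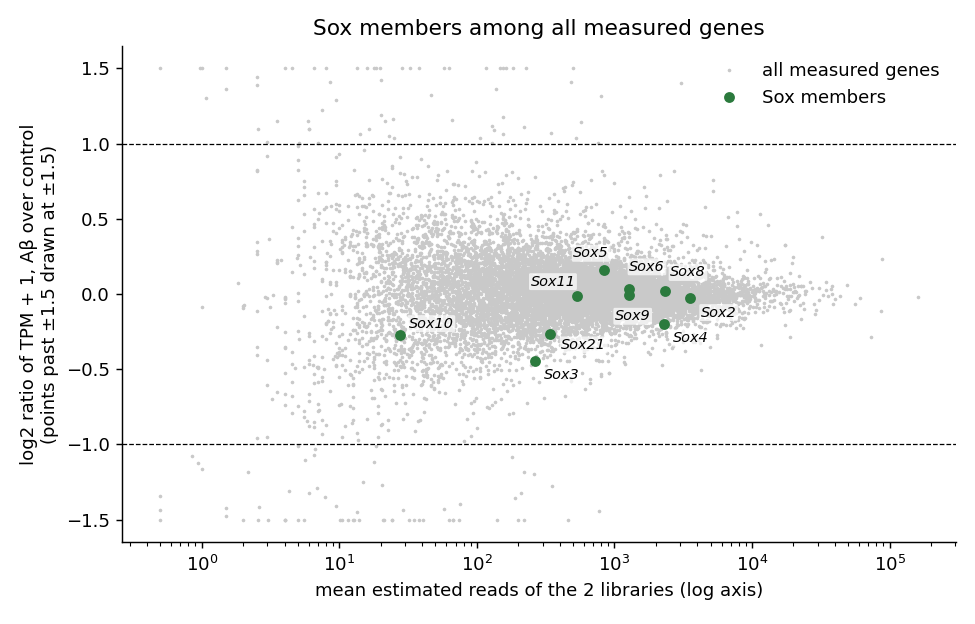
Log2 ratio of TPM + 1, Aβ over control, against the mean estimated reads of the 2 libraries on a log axis, for 12980 measured genes (grey) and the 10 Sox members (green), with dashed lines at 2-fold. The members lay inside the 2-fold lines, with Sox3 lowest at −0.45 and Sox5 highest at 0.16.

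Of the other Sox genes, 4 of 8 in the table were measured, and all 4 had a ratio above 1, with the interval above 1 for 1 of them. Their median log2 ratio was 0.07, against 0.01 over all measured genes. Sox7, a SoxF factor best known from endothelium, stood at 24.5 TPM with Aβ, against 21.7 TPM in the control (763 and 678 reads, ratio 1.12, 1.01 to 1.247). With reads scaled by the upper quartile that ratio was 1.11 and its interval took in 1. The SoxF relatives Sox17 (1 and 0 reads) and Sox18 (2 and 0 reads) were barely seen, as were Sox15 (0 and 3 reads) and Sox30 (0 and 1 reads). The 4 endothelial markers in the table were all below 1 TPM in both libraries, with a sum of 0.56 TPM with Aβ, against 0.37 TPM in the control. Sox12 of the SoxC subgroup (35.0 TPM with Aβ, 32.9 TPM in the control; ratio 1.07, 0.896 to 1.28) and Sox13 of the SoxD subgroup (12.3 and 11.8 TPM; 1.03, 0.895 to 1.19) had intervals that included 1. The SoxB1 gene Sox1 was listed at 27.6 TPM with Aβ, against 26.6 TPM in the control, but on 71.49 and 66 reads (1.07, 0.757 to 1.52). Its implied length was only 248 bases with Aβ and 235 in the control, so its TPM rests on a short stretch and was not ranked with the members.

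Genes tied to SoxB1 and progenitors were mostly lower in the Aβ library, and none of the measured ones had an interval above 1. Among 14 measured genes 11 were lower and 3 were higher. Their median log2 ratio was −0.19, against 0.01 for all measured genes. The counting interval of the read ratio lay below 1 for 6 of these genes, and it excluded 1 either way for 24.5% of all measured genes. It lay below 1 for 13.4% of the deeply read genes with whole reads, a set that leaves out Hes5, which is among the 6. Intervals narrow with depth, and Vim had 65927 and 80195 reads, so the count and the shares are not like for like. Outside the measured genes, the RNA-binding protein gene Lin28b had 10 reads in the Aβ library against 1 in the control library. The filament vimentin (Vim) stood at 4236 TPM with Aβ, against 5151 TPM in the control (ratio 0.820, 0.812 to 0.828), and the fatty acid binding protein Fabp7 at 5661 and 6895 TPM (0.849, 0.832 to 0.866). The filament nestin (Nes) had a ratio of 0.859 (0.841 to 0.878) and the receptor Notch1 of 0.817 (0.787 to 0.848). The Notch effector Hes5, with 4 and 15 reads (0.266, 0.0643 to 0.835), was the only measured gene of the lists past 2-fold by TPM + 1, and Hes1 had 36 and 48 reads (0.748, 0.472 to 1.18).

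Glial lineage factors other than Sox showed 11 of 16 measured genes lower and 5 higher. The median of their log2 ratios was −0.09, with the interval below 1 for 5 and above 1 for 2, against 24.5% of measured genes in either direction. Olig1 (0.908, 0.893 to 0.923) and Olig2 (0.890, 0.864 to 0.917) were lower with Aβ, Id4, an inhibitor of bHLH factors, was higher (1.34, 1.09 to 1.67), and Nkx2-2, a factor of early oligodendrocytes, had 38 and 50 reads (0.758, 0.484 to 1.18). Cofactors of SoxE proteins had a median of −0.03, with 14 of 21 lower and 7 higher, and the interval below 1 for 6 and above 1 for 3, beside the same 24.5%. Among them Myrf, the myelin regulator that acts with Sox10, was lower at 2.74 TPM with Aβ, against 3.89 TPM in the control (0.710, 0.573 to 0.879). The calcium-driven factor Nfatc2 (1.47, 1.27 to 1.71) and Egr2, a partner of Sox10 in Schwann cells (1.47, 1.28 to 1.70), were higher, and Nfatc4 had 27 and 42 reads (0.641, 0.380 to 1.06).

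Of the Sox10 target genes 11 were measured, 8 of them lower and 3 of them higher. Their median log2 ratio was −0.08, with the interval below 1 for 4 and above 1 for 0, while it excluded 1 for 24.5% of measured genes. Both Myrf and the calcium-binding protein gene S100b (332 TPM with Aβ, 362 TPM in the control; 0.916, 0.878 to 0.956) were below 1. Pdgfra, the growth factor receptor of OPCs, had a ratio of 0.931 (0.867 to 0.999). The myelin genes Mbp (16.0 and 15.7 TPM; 1.07, 0.901 to 1.27) and Mog (7.89 and 9 TPM; 0.842, 0.684 to 1.04) had intervals that included 1, each at a level above that of Sox10.

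Neuronal genes linked to SoxC factors were split, with 5 of 11 higher and 6 lower, a median log2 ratio of −0.03, and the interval below 1 for 4 and above 1 for 0, beside 24.5% of measured genes that excluded 1. Stmn1 (0.908, 0.878 to 0.940), the membrane-linked substrate gene Marcks (0.869, 0.834 to 0.905) and the homeobox factor Prox1 (0.787, 0.645 to 0.959) were lower, and the neuronal tubulin Tubb3 had 158 and 132 reads (1.19, 0.941 to 1.52). Cartilage genes controlled by Sox9 with Sox5 and Sox6 were mostly below 1 TPM, with 5 of 12 measured, 3 of them higher and 2 lower, and a median log2 ratio of 0.21, which was −0.0032 over all 12 without the filter on low values. Of these Chst11, a chondroitin sulfotransferase (72.5 TPM with Aβ, 58.3 TPM in the control; 1.23, 1.18 to 1.28), and the collagen gene Col11a1 (1.15, 1.09 to 1.21) were higher with Aβ, while Wwp2 (1.16, 0.984 to 1.37) and Col9a3 (0.902, 0.790 to 1.03) had intervals that included 1.

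**Figure D5:**
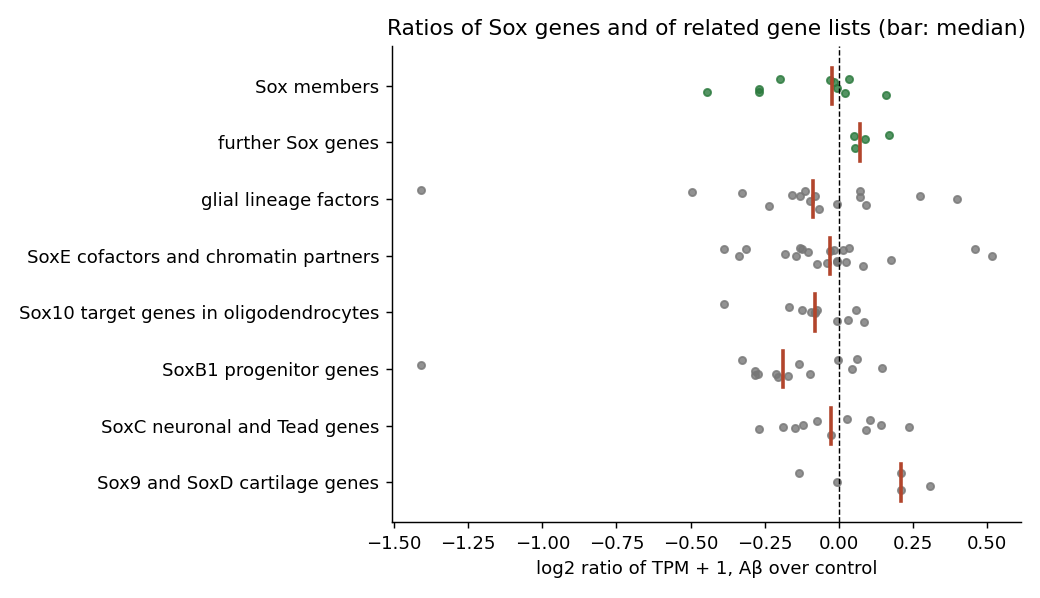
Log2 ratio of TPM + 1, Aβ over control, for each measured gene (points) of the Sox members, the further Sox genes (both green) and the related lists (grey), with the median of each as a red bar. The SoxB1 progenitor genes had a median of −0.19 and the Sox members of −0.02, and the point at −1.41 in 2 lists is Hes5.

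Markers of other cells moved with these values as follows, and their part in the Sox ratios was not tested. Astrocyte markers were split, with 3 of 7 higher and 4 lower, a summed level of 1995 TPM with Aβ, against 1974 TPM in the control, and none at 0; Gfap (0.887, 0.861 to 0.914), Aqp4 (0.849, 0.804 to 0.898) and Aldh1l1 (0.907, 0.832 to 0.988) were lower, and Aldoc (1.17, 1.10 to 1.23), Gja1 (1.06, 1.03 to 1.09) and Slc1a3 (1.02, 1.002 to 1.03) were higher. Microglial markers were lower in 4 of 6 measured, with a summed level of 99.8 TPM with Aβ, against 116 TPM in the control and none at 0. Among them Aif1 had a ratio of 0.778 (0.635 to 0.953), Cx3cr1 0.554 (0.274 to 1.08), Tmem119 0.864 (0.548 to 1.36) and Itgam 1.12 (0.986 to 1.27). OPC markers were lower in 4 of 7 and higher in 3, with a median log2 ratio of −0.06. The interval lay below 1 for 4 (Olig1, Olig2, Pdgfra and Ptprz1) and above 1 for 2, while it excluded 1 for 24.5% of measured genes. Intervals narrow with depth, and that of Ptprz1, on 54506 and 57095 reads, was 0.941 to 0.963 around 0.952. The proteoglycan Cspg4 (1.78, 1.54 to 2.05) and the secreted C1ql1 (1.95, 1.32 to 2.91) were higher, and Cacng4 was at 1.43 (0.994 to 2.07).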

How the data were processed

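Each RNA-seq library was made from 1 µg of total RNA, per the labels' protocols. Bowtie2 and the build Rnor_6.0 are named in the submitters' processing notes; neither the counting tool nor the annotation is stated there or in the labels. The authors deposited an estimated count of reads per gene, which is not whole for 1979 genes with Aβ and 2074 in the control, with TPM and FPKM. A deposited column pair named normalized read count equals the count rounded up in each of 17049 rows, and this score was left out. The authors' deposited enrichment table holds gene numbers per term, fold enrichment and p-values.

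A gene was called measured if either library had it at 1 TPM or more. Log2 ratios used TPM + 1, and read ratios used counts rounded to whole numbers and scaled to library totals (Python 3.11.15, scipy 1.17.1). No source used here names molecular identifiers; without them reads are not independent molecules and all intervals cover counting error only. A gene with no reads could have up to 3, that is 0.191 CPM (Aβ) or 0.192 CPM (control). The interval code was checked on simulated counts.

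The members and the gene lists were chosen with earlier results of these data known. Named genes were the members, the other measured Sox genes, the 4 genes of each list farthest from a log2 ratio of 0, and fixed level references. Ptprz1, Gpr17, Slc1a3, Gja1, Csf1r, Lin28b, Nes, Notch1, Tead2, Stmn2, Elavl3, Elavl4, Dcx, Pdgfrb, Dcn, Acta2, Sox15, Sox17, Sox18 and Sox30 were named after their values were seen. Some genes that this rule names are not reported here.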

Additional observations from a re-analysis of the deposited data

How the results depend on the processing

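Of 138 recalculations of the Sox ratios, subgroup sums and list medians, 134 stayed within the counting interval (for medians, the order-statistic interval over genes) and kept their side of equality where the interval had excluded 1. The 4 others were the following. With the threshold at a log2 ratio of 0.32 in place of 2-fold, 1 member (Sox3) was past it; Sox10, at −0.27, was past it too at −0.49 with a pseudocount of 0.1 TPM, −0.54 with none and −0.37 by reads per total, all within its counting interval. With reads scaled by the upper quartile, the Sox7 ratio of 1.11 had an interval that took in 1. The median log2 ratio of the fibroblast and pericyte markers, over 2 measured genes, was −0.72, and it was −0.43 with no filter on low values and −1.22 with a pseudocount of 0.1 TPM, since a smaller pseudocount widens the ratio of low genes. With no filter on low values the medians of the cartilage genes (0.21) and the Schwann cell and neural crest markers (0.29) were −0.0032 and 0.06. Both were counted as staying within the order-statistic interval. For lists of 7 or fewer measured genes that interval runs from the lowest to the highest gene, so it is a loose bound. Scaling by the median ratio, by the upper quartile or without the 100 most abundant genes moved all log2 read ratios by at most 0.02. No paired analysis was possible because each group has 1 library, and for the same reason no library could be left out. Among the members depth limits Sox10 most, at 22 and 33 reads.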

Other observations

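The authors' deposited table of gene ontology terms for genes higher with Aβ names 246 distinct genes over 282 terms, and none of the 10 Sox members or of the 8 further Sox genes is among them. Gliogenesis is 1 of those terms in the authors' deposited table, with 22 of their 391 genes, a fold enrichment of 2.00 and an adjusted p of 0.0344.

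Markers of cell types that use Sox10 outside the brain were partly present. Of 8 Schwann cell and neural crest markers 4 were measured, with 3 higher and 1 lower with Aβ and a median log2 ratio of 0.29, or 0.06 over all 8 without the filter on low values. The myelin protein gene Pmp22 stood at 201 TPM with Aβ, against 170 TPM in the control (ratio 1.18, 1.12 to 1.24), the melanocyte factor Mitf had a ratio of 1.31 (1.09 to 1.57), and Prx had 52 and 69 reads (0.752, 0.514 to 1.09). Oligodendrocyte markers had a median log2 ratio of −0.08, with 4 of 6 measured lower and 2 higher. Among them Cnp was at 169 TPM with Aβ, against 178 TPM in the control (0.945, 0.903 to 0.990) and Cldn11 had 38 and 58 reads (0.653, 0.422 to 1.00). Neuronal markers had a median of 0.19 over 6 genes, with Snap25 (1.5, 1.16 to 1.96) and Rbfox3 (1.85, 1.06 to 3.31) higher and Syt1 (0.490, 0.297 to 0.790) lower. Rbfox3 reached 1 TPM only with Aβ (2.03 and 0.92 TPM) and Syt1 only in the control (0.61 and 1.35 TPM), so the filter favours these directions. Microglial markers had a median of −0.09 and astrocyte markers of −0.10. Ependymal and choroid markers had a median of −0.11 over 3 genes, with Foxj1 at 0.908 (0.676 to 1.22), Rsph1 on 13 and 18 reads and Ttr on 7 and 3. The fibroblast genes Col1a1 (0.425, 0.258 to 0.683) and Col1a2 (0.365, 0.257 to 0.509, on reads that were not whole) were lower with Aβ, at 3.07 TPM or less in either library. Col1a1 reached 1 TPM only in the control (0.45 and 1.05 TPM), so the filter favours its direction. Of the same list, Pdgfrb (45 and 49 reads), Dcn (7 and 13 reads) and Acta2 (0 and 2 reads) were not measured and had intervals that included 1. The housekeeping gene Actb had a ratio of 0.997 (0.982 to 1.01).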
